A study of Homo sapiens with 16 samples.

Results

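The genes described here are 10 targets and regulators of canonical Wnt signalling, *AXIN2*, *LGR5*, *NKD1*, *ASCL2*, *RNF43*, *ZNRF3*, *TCF7*, *LEF1*, *SP5* and *WNT7A*, chosen by name from the 33937 genes of the deposited count table, and each has 1 entry there. RNA was sequenced from HCT116, an established human colorectal carcinoma line, in 16 libraries, with 4 for each of 4 groups. A scrambled short hairpin RNA (shRNA) was carried by SCR (-dox), grown without doxycycline (dox), and by SCR (+dox), grown with it. An shRNA against *NAA40*, the gene of an acetyltransferase of histone N-termini, was carried by NAA40-KD (-dox), without dox, and by NAA40-KD (+dox), with it. Where dox was given, it was at 1 μg/ml for 96 h. Both hairpins sit in stably engineered lines and are switched on by dox, and the sources used here do not say whether a line is 1 clone. A difference between the hairpins is therefore also a difference between 2 engineered lines.

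In canonical Wnt signalling, a secreted Wnt ligand binds a Frizzled receptor and the co-receptor LRP5 or LRP6, which stops a complex of APC, AXIN, GSK3 and CK1 from marking β-catenin for destruction. The β-catenin that is spared enters the nucleus and joins TCF/LEF factors on DNA, where it turns on target genes, several of which feed back on the pathway. In the intestine this programme keeps the stem cells of the crypt. HCT116 is known for a stabilising mutation in one allele of *CTNNB1*, the gene of β-catenin, with *APC* intact. The mutation cannot be checked from counts per gene.

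The stretches just upstream of *SP5* and *WNT7A* are shown because *SP5*, a zinc finger factor, is a textbook direct target of β-catenin and TCF, while *WNT7A*, a ligand, was the member with the largest differences between the lines. Both are RefSeq sequence of the build GRCh38.p14 in the direction of transcription. The capitals mark matches to the TCF/LEF core letters CTTTGAT or CTTTGAA on either strand, so that TTCAAAG is CTTTGAA read on the other strand. Both lie outside the span of the gene in GENCODE 29, upstream of its first exon. The *SP5* stretch is chr2:170715087-170715336 on the + strand, and that of *WNT7A* is chr3:13880122-13880321 on the - strand.
SP5: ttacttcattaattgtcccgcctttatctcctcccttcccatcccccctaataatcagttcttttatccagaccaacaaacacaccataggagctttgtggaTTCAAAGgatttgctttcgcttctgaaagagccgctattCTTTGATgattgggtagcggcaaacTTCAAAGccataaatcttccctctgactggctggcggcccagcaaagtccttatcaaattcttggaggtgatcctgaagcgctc
WNT7A: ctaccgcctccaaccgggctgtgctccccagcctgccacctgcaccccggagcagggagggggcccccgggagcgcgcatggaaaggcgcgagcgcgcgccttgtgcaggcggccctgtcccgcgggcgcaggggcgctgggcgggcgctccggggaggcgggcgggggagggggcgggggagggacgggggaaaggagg
The *SP5* stretch holds 3 matches. CTTTGAT lies at 109 to 103 bases before the RefSeq start. CTTTGAA, on the other strand, lies at 148 to 142 and at 84 to 78 bases before it. This start directly follows the stretch shown, while the gene starts at 170715351 in GENCODE 29. The *WNT7A* stretch, of which 80.0% is G or C against 45.6% for *SP5*, holds 0 matches. Of 35116 promoter windows of 300 bases, 6.86% hold at least 1 of the motifs, 2.62% CTTTGAT and 4.43% CTTTGAA. The motifs differ in the last letter, so that a match is to one or the other. Windows were found for 5 of the 10 genes, *LEF1*, *RNF43*, *SP5*, *TCF7* and *WNT7A*, and 7 windows in all. Outside *SP5* these windows hold 0 matches, which says only that these letters are not in them.

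Total counts ran from 11065606 to 13855486 per library. *NAA40*, the targeted gene, had 34.5, 25.9, 29.1 and 28.2 CPM (counts scaled to a common library size) in the libraries labelled SCR (-dox) and 12.6, 11.6, 9.27 and 13.8 CPM in those labelled NAA40-KD (-dox), or -1.31 ± 0.18 on the log2 scale (SE, edgeR adjusted p = 0.00521). Under dox, it had 26.0, 28.4, 26.2 and 28.8 CPM in the SCR libraries and 31.5, 29.3, 28.7 and 31.9 CPM in those labelled NAA40-KD (+dox), a log2 fold change of 0.15 ± 0.10 (adjusted p = 0.281). The targeted gene was thus low in the KD line where the label reads (-dox), and not lower than SCR where it reads (+dox), which goes against the labels, and the column names write wDox for the groups whose treatment label reads without dox. Every group is therefore called by its label throughout, and no direction given here is a direction of *NAA40* knockdown. The library labelled NAA40-KD (-dox) replicate 4 stood apart. Its median absolute deviation from its group was 0.756 on the log2 scale, against 0.0842 to 0.290 in the other libraries, its deviations followed the GC content of genes (Spearman's rho 0.917 across genes, which are not independent replicates), and 5.03% of its counts were mitochondrial. The epithelial markers *EPCAM*, *KRT8*, *KRT18*, *KRT19* and *CDH1* summed to between 3795 and 5489 CPM in the other 3 groups and to between 5119 and 11061 CPM in NAA40-KD (-dox). *COL1A2*, *DCN*, *LUM*, *PTPRC*, *CD3E* and *CDH5*, markers of fibroblasts, leukocytes and endothelium, had at most 3 counts in every library. Summed levels were 57.1 to 94.1 CPM for the 6 fibroblast markers in the other 3 groups and 68.1 to 196 CPM in NAA40-KD (-dox), with *COL1A1* at 745 to 2372 counts, 0.213 to 1.23 CPM for the 4 leukocyte markers and 0.498 to 2.96 CPM for the 3 endothelial ones. The part of these marker levels in what is given for NAA40-KD (-dox), *TCF7*, *KREMEN1* and *CD44* included, was not tested.

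Of the members, 6 passed the filter on low counts and 4 were at or near 0 (plot of counts in all 16 libraries). Per length, as RPKM, which divides CPM by the length of annotated exon in kilobases, the mean level over the 16 libraries was highest for *RNF43*, at 5.24 ± 0.49 (SD), followed by *ZNRF3* at 3.21 ± 0.47, *TCF7* at 2.36 ± 0.59 and *NKD1* at 2.03 ± 0.39. *WNT7A* stood at 0.942 ± 0.426 RPKM, *AXIN2* at 0.476 ± 0.137 and *SP5* at 0.291 ± 0.200. The ranges of mean ± SD of neighbours in this order did not overlap for *RNF43* and *ZNRF3*, for *NKD1* and *WNT7A* and for *SP5* and *ASCL2*. The order was not the same in each group, since *TCF7* stood at 1.45 and *NKD1* at 2.53 RPKM in NAA40-KD (-dox). It also rests on the exon lengths, 17425 bases for *NKD1* and 6968 for *ZNRF3*. By CPM, *NKD1* at 35.3 stood above *ZNRF3* at 22.3. *ASCL2*, *LGR5* and *LEF1* had mean levels of 0.0106, 0.00937 and 0.00086 RPKM. For comparison, *CTNNB1* itself averaged between 28.1 and 30.2 RPKM in the 4 groups, and *TCF7L2*, the main TCF factor of gut epithelium, between 28.7 and 38.2 RPKM. These 2 genes were added as context after their values had been seen.

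**Figure D1:**
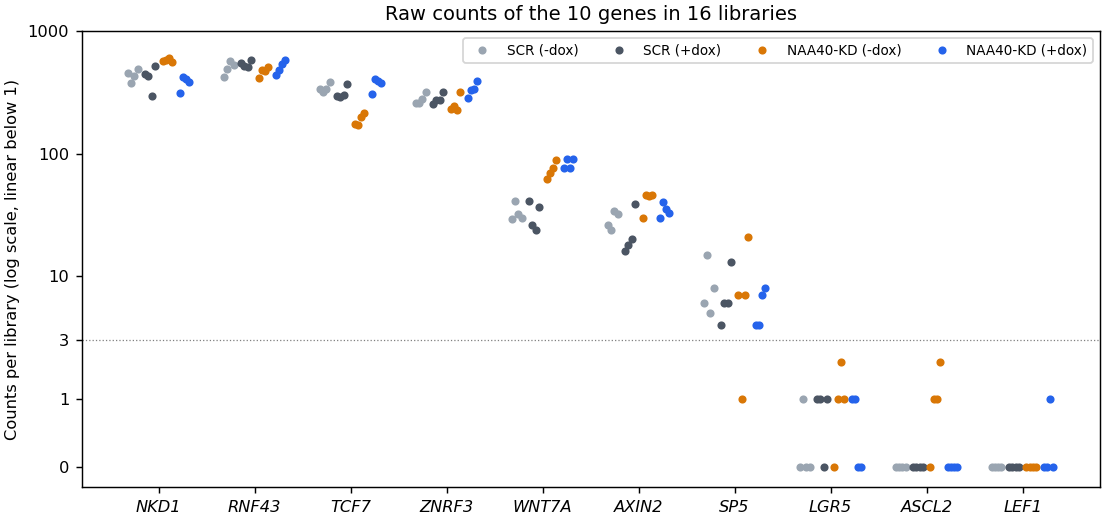
Raw counts of the 10 genes (vertical axis, reads per library on a scale that is linear near 0 and logarithmic above) in each of the 16 libraries, coloured by group. *RNF43*, *NKD1*, *ZNRF3* and *TCF7* lie between 170 and 607 counts, *AXIN2* and *WNT7A* between 16 and 90 counts, *SP5* between 1 and 21, and *LGR5*, *ASCL2* and *LEF1* between 0 and 2.

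The 4 genes near 0 did not reach the filter of more than 1 CPM in at least 4 libraries, and no test was made for them. *LGR5*, the R-spondin receptor that marks crypt stem cells, had 10 counts in all 16 libraries together. It had 0, 1, 0 and 0 counts in SCR (-dox), 1, 1, 0 and 1 in SCR (+dox), 0, 1, 2 and 1 in NAA40-KD (-dox), and 1, 1, 0 and 0 in NAA40-KD (+dox), so all groups overlapped at the level of single reads. *ASCL2*, a basic helix-loop-helix factor of the same stem cells, had 0 counts in 12 libraries and 0, 1, 1 and 2 in NAA40-KD (-dox). A count of 0 over the 4 libraries of SCR (-dox) allows a level of up to 0.0611 CPM, and the mean of 0.0784 CPM in NAA40-KD (-dox) rests on 4 reads, too few for a test. *LEF1*, an HMG-box partner of β-catenin, had 1 count, in NAA40-KD (+dox) replicate 3, and 0 in the other 15 libraries. A count of 0 in 1 library allows up to 0.217 to 0.271 CPM. These limits cover counting error only.

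*SP5* was counted in every library, but at the edge of detection. Its counts were 6, 15, 5 and 8 in SCR (-dox) and 7, 1, 7 and 21 in NAA40-KD (-dox), with mean levels of 0.710 ± 0.428 and 0.710 ± 0.711 CPM (SD, n = 4). The lowest and the highest library of the 16 were both in NAA40-KD (-dox), and the highest was replicate 4, the library that stood apart. Under dox the counts were 4, 6, 6 and 13 in SCR and 4, 4, 7 and 8 in the libraries labelled NAA40-KD, or 0.543 ± 0.276 and 0.436 ± 0.128 CPM (SD, n = 4). The groups overlapped in both comparisons.

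The 6 remaining genes, *AXIN2*, *NKD1*, *RNF43*, *ZNRF3*, *TCF7* and *WNT7A*, passed the filter in every comparison. The first question was whether the line labelled NAA40-KD differed from SCR without dox. At an adjusted p under 0.05 (edgeR quasi-likelihood test, adjusted over all genes tested), 2 of the 6 passed, *WNT7A* higher and *TCF7* lower, or 33.3%, where 6.42% of the 13903 genes tested passed. With an absolute log2 fold change above 1 as well, the rule of the study's methods, 1 passed, *WNT7A*, against 3.47% of all genes. *WNT7A* had been picked out for a difference between these lines under dox. Its pass without dox, and the shares that count it, are not free of that choice. Under dox, *WNT7A* was past the threshold again, but it had been picked out for this difference in an earlier look at the same libraries, so it is no test result there. Of the other 5 members 0 passed, where 24.5% of the 13869 genes tested passed, and 2.15% with the fold threshold. The median log2 fold change of the 6 was 0.08 without dox and 0.27 under dox, beside 0.04 and -0.0042 for all genes tested. In these bulk samples, more or fewer cells that express a gene and more or less RNA per cell cannot be told apart.

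**Figure D2:**
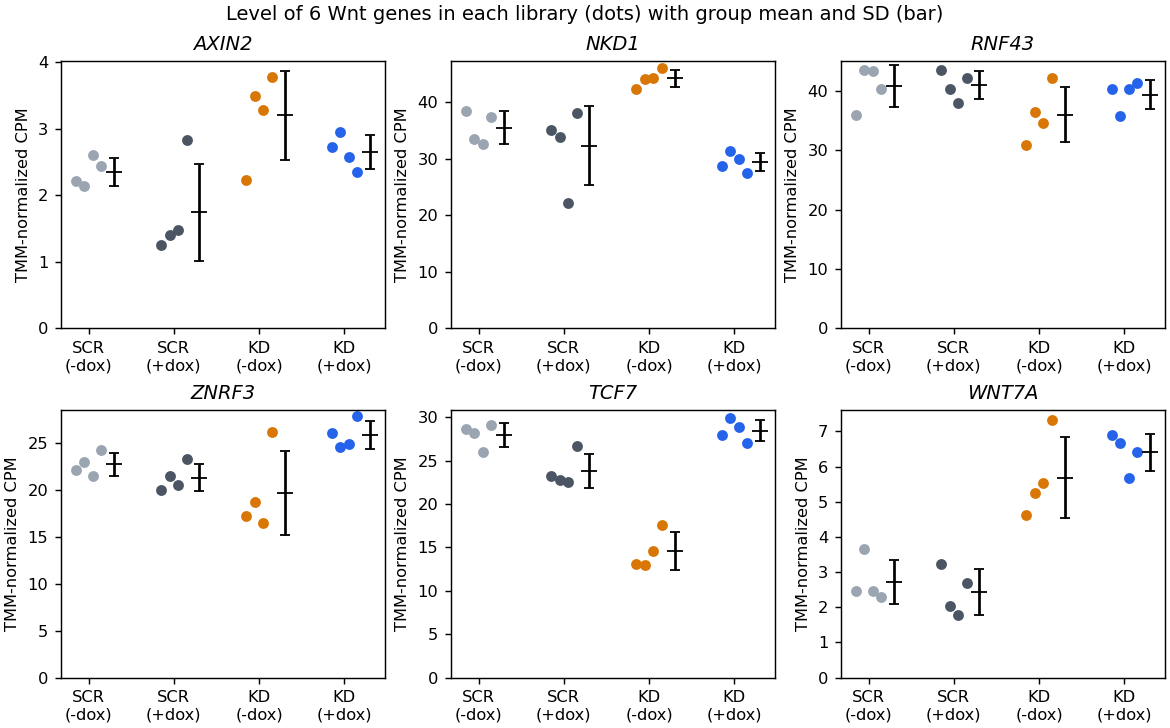
Levels of the 6 tested genes (vertical axis, TMM-normalized CPM from 0) in each library of the 4 groups (horizontal axis); points are libraries and bars are the mean ± SD of 4. *WNT7A* lies between 4.63 and 7.33 CPM in all 8 libraries labelled NAA40-KD and between 1.78 and 3.65 CPM in all 8 SCR libraries, whereas *TCF7* is low, at 12.9 to 17.6 CPM, in NAA40-KD (-dox) alone.

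*WNT7A* encodes a secreted Wnt ligand that can signal through Frizzled receptors with or without β-catenin. Without dox its level was 2.47, 3.65, 2.45 and 2.28 CPM in SCR and 4.63, 5.25, 5.54 and 7.33 CPM in the libraries labelled NAA40-KD, or 2.71 ± 0.63 and 5.69 ± 1.16 CPM (SD, n = 4). The lowest NAA40-KD library lay above the highest SCR library. The log2 fold change was 1.08 ± 0.23 (SE, edgeR adjusted p = 0.0271), or 2.11-fold. It was 0.92 ± 0.21 without replicate 4 of NAA40-KD (adjusted p = 0.00283). The call was not held by every set of libraries, because the adjusted p rose above 0.05, to at most 0.102, when NAA40-KD (-dox) replicate 2 or 3, or SCR (-dox) replicate 1, 3 or 4, was left out, with log2 fold changes of 0.92 to 1.25 over all 8 omissions.

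Under dox, *WNT7A* stood at 3.23, 2.03, 1.78 and 2.69 CPM in SCR and at 6.91, 6.66, 5.69 and 6.40 CPM in the libraries labelled NAA40-KD. The groups again lay apart, with means of 2.43 ± 0.65 and 6.41 ± 0.53 CPM (SD, n = 4). The log2 fold change was 1.39 ± 0.19 (SE), or 2.63-fold, and it stayed between 1.27 and 1.56 when single libraries were left out. These values are a description, since the gene was picked out for them. Within the line labelled NAA40-KD, the (+dox) and (-dox) libraries overlapped, with a log2 fold change of 0.17 ± 0.18 (SE, edgeR adjusted p = 0.568). From low to high, the order of the group means was SCR with dox, SCR without it, and then the NAA40-KD groups labelled (-dox) and (+dox). Of these neighbours SCR (-dox) and NAA40-KD (-dox) alone did not overlap. *WNT7A* was thus higher in both NAA40-KD groups, of which 1 had low *NAA40*, and its interaction of line and dox label was 0.33 ± 0.30 on the log2 scale (SE, edgeR adjusted p = 0.520).

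*TCF7* (TCF1), an HMG-box factor that binds β-catenin and is itself a Wnt target, was low in 1 of the 4 groups, the one in which *NAA40* was low. Its level was 28.7, 28.2, 26.0 and 29.2 CPM in SCR (-dox) and 13.1, 12.9, 14.6 and 17.6 CPM in NAA40-KD (-dox), with no overlap. *TCF7* fell by 0.94 ± 0.16 on the log2 scale (SE, edgeR adjusted p = 0.0115), to 52.3% of the SCR level. Replicate 4 was the highest of its group, and the log2 fold change was -1.05 ± 0.11 without it (adjusted p = 3.85e-06). The call held in each of the 8 fits that left out 1 library, with adjusted p up to 0.0494.

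Under dox, *TCF7* stood at 23.2, 22.8, 22.6 and 26.7 CPM in SCR and at 28.0, 30.0, 28.9 and 27.0 CPM in the libraries labelled NAA40-KD. Here the NAA40-KD libraries were the higher ones and the groups did not overlap, but the log2 fold change of 0.26 ± 0.10 did not pass (SE, edgeR adjusted p = 0.0678). Between the NAA40-KD groups *TCF7* was higher with the (+dox) label, at 28.5 ± 1.3 against 14.6 ± 2.2 CPM (SD, n = 4), or 0.97 ± 0.14 on the log2 scale (SE, adjusted p = 0.00562). The interaction of line and dox label, which tests whether the line difference differed between the dox labels, gave 1.20 ± 0.17 for *TCF7* on the log2 scale (SE, edgeR adjusted p = 0.000360). *NAA40* gave 1.46 ± 0.18 in the same fit (adjusted p = 0.000220). *TCF7* was the only one of the 6 to pass the interaction, where 9.22% of 14392 genes did, and it passed in all 24 alternative fits. *ZNRF3* gave 0.49 ± 0.19 (adjusted p = 0.124), and 0.65 ± 0.14 without NAA40-KD (-dox) replicate 4 (adjusted p = 0.00116). *NKD1* gave -0.45 ± 0.20 (adjusted p = 0.165), and -0.60 ± 0.15 without SCR (+dox) replicate 3 (adjusted p = 0.0208). Part of the exons of *TCF7* (chromosome 5, 134114711 to 134151865, GRCh38, + strand) lies opposite exons of *SKP1*, and whether reads were counted by strand is not given in the sources used here, so reads of *SKP1* in its count cannot be separated.

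Of the 3 inhibitors of the upstream pathway and the scaffold *AXIN2*, none passed in either comparison of the lines with all libraries. *NKD1*, an antagonist that binds Dishevelled, stood at 38.5, 33.5, 32.7 and 37.3 CPM in SCR (-dox) and at 42.3, 44.0, 44.3 and 46.0 CPM in NAA40-KD (-dox). All 4 NAA40-KD libraries lay above all 4 SCR libraries, but the log2 fold change of 0.32 ± 0.14 did not pass (SE, edgeR adjusted p = 0.187). It passed without replicate 4, at 0.29 ± 0.09 (adjusted p = 0.0249), where 36.5% of all genes then passed. Under dox the levels were 35.1, 33.9, 22.1 and 38.1 CPM in SCR and 28.6, 31.3, 29.9 and 27.5 CPM in the libraries labelled NAA40-KD, which overlapped (log2 fold change -0.14 ± 0.13, adjusted p = 0.478). Replicate 3 of SCR (+dox) was the low one, and without it the value was -0.29 (adjusted p = 0.0323).

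Between the groups labelled NAA40-KD, *NKD1* was 44.2 ± 1.5 CPM with the (-dox) label and 29.3 ± 1.6 CPM with the (+dox) label (SD, n = 4). The 8 libraries did not overlap, and *NKD1* fell by 0.59 ± 0.12 on the log2 scale (SE, edgeR adjusted p = 0.0147). With *TCF7* it was one of 2 members of 6 that passed this comparison, where 10.2% of 13844 genes did, and 0 members passed the fold threshold as well. The *NKD1* call did not hold when any 1 of the 4 (+dox) libraries was left out, with adjusted p up to 0.0749 and log2 fold changes of -0.62 to -0.56 over the 8 omissions. *TCF7* and *NKD1* thus moved in opposite directions between the same 8 libraries, *TCF7* up and *NKD1* down with the (+dox) label. Part of the exons of *NKD1* lies opposite exons of *AC007608.1*, so any reads of that gene in the *NKD1* count cannot be separated.

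*ZNRF3* and *RNF43* encode related membrane E3 ubiquitin ligases that remove Frizzled receptors from the cell surface. *ZNRF3* had 22.1, 23.0, 21.5 and 24.2 CPM in SCR (-dox) and 17.2, 18.6, 16.5 and 26.2 CPM in NAA40-KD (-dox). Replicates 1 to 3 of NAA40-KD lay below all SCR libraries and replicate 4 above them. With all libraries the log2 fold change was -0.20 ± 0.18 (SE, edgeR adjusted p = 0.554), and without replicate 4 it was -0.38 ± 0.11 (adjusted p = 0.0112), so the size and the call rest on that library. Under dox *ZNRF3* stood at 19.9, 21.5, 20.5 and 23.2 CPM in SCR and at 26.0, 24.6, 24.8 and 27.8 CPM in the libraries labelled NAA40-KD. These groups did not overlap, and the log2 fold change of 0.28 ± 0.10 was close to the threshold without passing it (adjusted p = 0.0520). It was 0.32 (adjusted p = 0.0254) without replicate 4 of SCR (+dox).

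*RNF43* had 35.9, 43.6, 43.4 and 40.3 CPM in SCR (-dox) and 30.9, 36.4, 34.7 and 42.2 CPM in NAA40-KD (-dox), which overlapped (log2 fold change -0.17 ± 0.16, SE, edgeR adjusted p = 0.552). Replicate 4 was again the highest of its group, and the value without it was -0.27 ± 0.10 (adjusted p = 0.0516). Under dox the SCR and NAA40-KD groups averaged 41.0 ± 2.4 and 39.4 ± 2.5 CPM (SD, n = 4), or -0.06 ± 0.09 on the log2 scale (SE, adjusted p = 0.686), and *RNF43* had the smallest line difference of the 6 there. Without replicate 4, both ligases passed between the NAA40-KD groups, *ZNRF3* at 0.56 ± 0.09 (log2, adjusted p = 1.12e-05) and *RNF43* at 0.21 ± 0.08 (adjusted p = 0.0280), where 52.4% of all genes passed. With all libraries the same values were 0.39 ± 0.17 (adjusted p = 0.175) and 0.13 ± 0.14 (adjusted p = 0.589). *RNF43* shares exon bases on its own strand with *SUPT4H1*, so part of its count may not be its own.

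*AXIN2*, a scaffold of the destruction complex and the most used readout of β-catenin activity, was weakly counted, at 16 to 46 reads per library. It stood at 2.21, 2.14, 2.60 and 2.44 CPM in SCR (-dox) and at 2.24, 3.5, 3.28 and 3.79 CPM in NAA40-KD (-dox). NAA40-KD replicate 1 lay within the range of SCR and the other 3 above it, and the log2 fold change of 0.45 ± 0.23 did not pass (SE, edgeR adjusted p = 0.261). Under dox the levels were 1.26, 1.40, 1.48 and 2.83 CPM in SCR and 2.73, 2.96, 2.58 and 2.35 CPM in the libraries labelled NAA40-KD. Replicate 4 of SCR stood above the other 3 and within the NAA40-KD range. The log2 fold change was 0.59 ± 0.25 with it (adjusted p = 0.0986) and 0.93 without it (adjusted p = 0.00954). Part of the exons of *AXIN2* is shared on the same strand with *AC004805.1*.

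**Figure D3:**
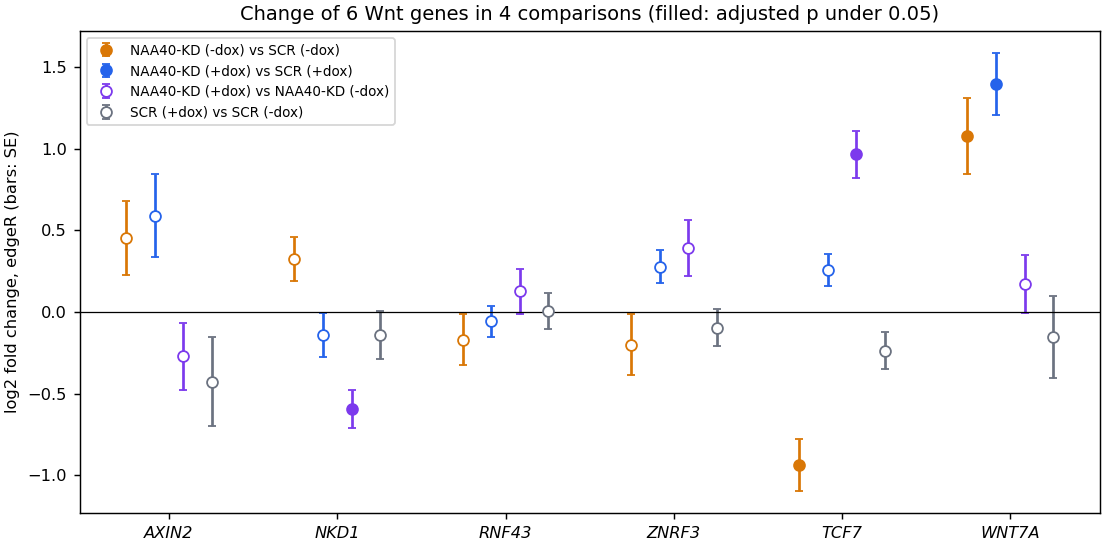
Log2 fold changes ± SE of the 6 tested genes (horizontal axis) in the 4 comparisons of 2 groups; filled points have an edgeR adjusted p under 0.05 over all genes tested. The filled points are *WNT7A* and *TCF7* for the lines without dox, *WNT7A* for the lines under dox, and *TCF7* and *NKD1* between the NAA40-KD groups. The *WNT7A* point under dox is no test result, since the gene was picked out for this difference.

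The dox labels were also compared within the SCR line, where dox switches on the scrambled hairpin as well, so dox and that hairpin cannot be told apart. Of the 6 genes 0 passed, and 0.0% of the 13882 genes tested did (edgeR). The log2 fold changes of the 6 ran from -0.43 for *AXIN2* to 0.00 for *RNF43*, with a median of -0.15. Without SCR (+dox) replicate 4 the value of *AXIN2* was -0.77 (edgeR unadjusted p = 0.0103, adjusted p = 0.999). An unadjusted p under 0.05 was found for 0 of the 6 members and for 271 of all genes, and DESeq2 and limma-voom called 0 members at an adjusted p under 0.05. *TCF7* came nearest, with levels of 28.0 ± 1.4 CPM without dox and 23.8 ± 2.0 CPM with it (SD, n = 4), a log2 fold change of -0.24 ± 0.11 (SE, unadjusted p = 0.0506 with edgeR, 0.0495 with DESeq2 and 0.0487 with limma-voom).

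**Figure D4:**
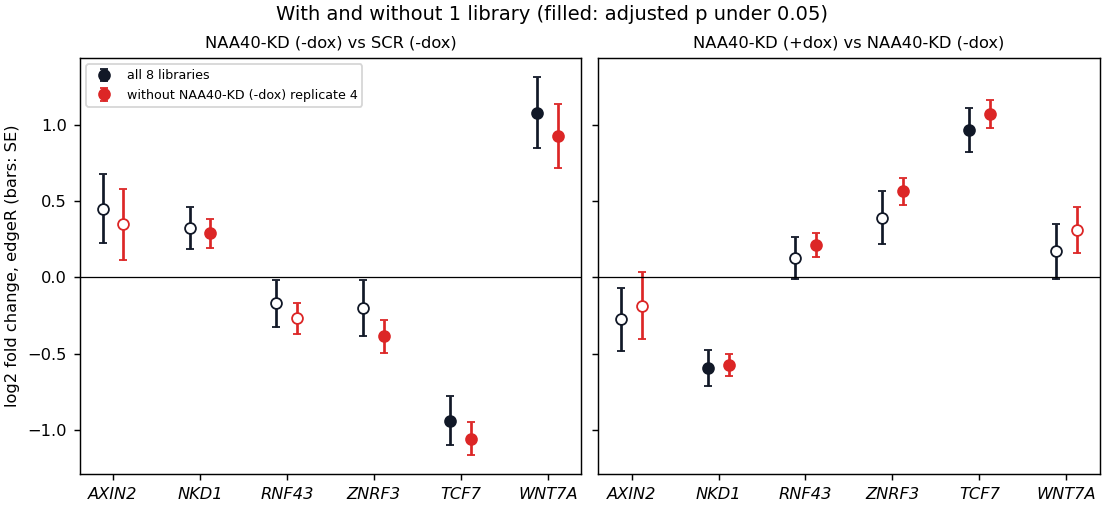
Log2 fold changes ± SE of the 6 tested genes (horizontal axis) in the 2 comparisons that use the NAA40-KD (-dox) libraries, with all libraries and without replicate 4 of that group. *ZNRF3* moved from -0.20 to -0.38 against SCR (-dox) and from 0.39 to 0.56 between the NAA40-KD groups, whereas *TCF7* moved from -0.94 to -1.05 and from 0.97 to 1.07.

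The rest of the pathway was counted over 7 lists of 126 genes written from general knowledge, *WNT7A* among them. Of the 81 that could be tested without dox, 5 passed, 2 higher and 3 lower, or 6.17%, and of the 82 tested under dox, 19 passed, 10 higher and 9 lower, or 23.2%. Both shares are near those of all genes, and both count *WNT7A*, which is no test result under dox. For the interaction of line and dox label, 83 could be tested. *KREMEN1* and *CD44* passed with a positive value and *BMP4* and *ID2* with a negative value, or 4.82%, where 9.22% of 14392 genes passed. Without NAA40-KD (-dox) replicate 4, 10 passed with a positive and 10 with a negative value, where 24.2% of all genes passed. Without replicate 4 of NAA40-KD, 14 were higher and 17 lower in the (-dox) comparison, where 36.5% of all genes passed. By list, the higher and lower genes were then 2 and 4 ligands, 3 and 1 receptors, 0 and 5 antagonists, 3 and 2 relay genes, 2 and 0 nuclear partners, 4 and 4 other targets and 0 and 1 differentiation genes, so the low counts without dox given for single lists rest on that library. *FZD10*, *RSPO3*, *SFRP2*, *APCDD1*, *SMOC2*, *TDGF1* and *FABP1* were not analysed here. In a fit of all 16 libraries, 8 of the genes named for the (+dox) comparison did not pass, *WNT9A*, *WNT3*, *FZD4*, *FZD3*, *DKK1*, *CSNK1A1*, *BTRC* and *TLE1* (adjusted p up to 0.327). Adjusted p-values of these lists are from edgeR over all genes tested.

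Among ligands and their release, 1 of 15 tested genes passed without dox, *WNT7A*, and 4 passed under dox, beside 6.42% and 24.5% of all genes. These 4 include *WNT7A*, which is no test result there. *WNT3* was higher, at 9.68 ± 1.00 against 6.54 ± 1.07 CPM (SD, n = 4, log2 fold change 0.56, adjusted p = 0.00918). *WNT9A* was lower, at 9.05 ± 1.40 against 15.7 ± 2.0 CPM (-0.79, adjusted p = 0.000462), as was *WLS*, the carrier that takes Wnt proteins to the cell surface (-0.40, adjusted p = 0.00189). *WNT7A* was thus not joined by a common rise of ligands. The median log2 fold change of the list was 0.13 without dox and -0.13 under dox.

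Of the 15 receptors, co-receptors and R-spondins tested, 0 passed without dox and 3 passed under dox, beside 6.42% and 24.5% of all genes. All 3 were Frizzled receptors and all were higher. *FZD5* rose from 23.1 ± 2.5 to 34.2 ± 2.3 CPM (SD, n = 4, log2 fold change 0.57, adjusted p = 0.000847). *FZD4* rose by 0.45 on the log2 scale (adjusted p = 0.0203) and *FZD3* by 0.38 (adjusted p = 0.0298), but the *FZD4* call was lost without SCR replicate 3 or NAA40-KD replicate 1 or 2 (adjusted p up to 0.0737), and the *FZD3* call without SCR replicate 3 or 4 or any 1 of the NAA40-KD libraries (adjusted p up to 0.115). Without dox, *FZD4* gave 0.38 with all libraries (adjusted p = 0.244) and 0.51 without NAA40-KD replicate 4 (adjusted p = 0.00232). In the (+dox) libraries *ZNRF3*, the ligase that removes Frizzled proteins, gave the 0.28 described above.

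Of the 14 antagonists in the table, 5 could be tested. *KREMEN1*, a receptor that acts with DKK1 against LRP6, was 75.2, 78.5, 61.7 and 83.3 CPM in SCR (-dox) and 30.8, 30.7, 31.2 and 42.8 CPM in NAA40-KD (-dox). It fell by 1.13 ± 0.18 on the log2 scale (SE, adjusted p = 0.00852), with no overlap, and its log2 fold change was -1.28 without replicate 4 (adjusted p = 5.34e-07). Under dox its log2 fold change was -0.14 ± 0.09 (adjusted p = 0.303). It was low in NAA40-KD (-dox) alone, as was *TCF7*, and was the one gene of its list to pass the interaction of line and dox label. *DKK1*, which blocks LRP6 itself, was lower under dox by -0.33 on the log2 scale (adjusted p = 0.0340), a call lost without SCR replicate 1 or 3 or any 1 of the NAA40-KD libraries (adjusted p up to 0.107). Without dox, *DKK1* gave -0.41 with all libraries (adjusted p = 0.106) and -0.34 without NAA40-KD replicate 4 (adjusted p = 0.00851).

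All 17 genes of the cytoplasmic relay and destruction complex were tested. *AMER1*, a membrane protein that binds APC and AXIN, was 7.15, 8.02, 6.88 and 6.17 CPM in SCR (-dox) and 11.5, 12.4, 10.4 and 12.8 CPM in NAA40-KD (-dox), or 0.75 ± 0.16 on the log2 scale (SE, adjusted p = 0.0263). Under dox it was 7.55, 6.16, 5.05 and 6.83 CPM in SCR and 12.8, 12.2, 13.7 and 12.4 CPM in the libraries labelled NAA40-KD (1.00 ± 0.14, adjusted p = 5.04e-05). The lines did not overlap in either comparison. The call without dox was lost when any 1 of the SCR libraries or NAA40-KD replicate 1 or 2 was left out (adjusted p up to 0.0959) and without the filter on low counts, while without NAA40-KD replicate 4 the log2 fold change was 0.69 (adjusted p = 0.00142). The call under dox held in all 17 alternative fits. *BTRC*, which recognises phosphorylated β-catenin, was higher under dox (0.35, adjusted p = 0.0108) and *CSNK1A1*, the priming kinase of β-catenin, lower (-0.31, adjusted p = 0.010), the latter call being lost without NAA40-KD replicate 3 (adjusted p = 0.0544). Without dox, *BTRC* gave 0.10 with all libraries (adjusted p = 0.799) and 0.26 without NAA40-KD replicate 4 (adjusted p = 0.0194). *CTNNB1* did not pass, at -0.07 ± 0.14 without dox (adjusted p = 0.794) and -0.09 ± 0.08 under dox (adjusted p = 0.425).

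*AMER1* was also the gene most like *WNT7A* across the 16 libraries, with a Pearson r of 0.97 between log2 CPM values, followed by *EIF1AD* and *TRAPPC9* at 0.94 each. *WNT7A* was the one member for which this was asked, since it alone passed the adjusted p and the fold threshold together in a comparison of 2 groups. The 16 points share 4 groups and 2 lines, so r describes the same split by line and has no p here.

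Of 12 nuclear partners of β-catenin tested, 0 passed without dox when all libraries were used, where 6.42% of all genes did, and 24.5% under dox. Under dox *TLE1*, a Groucho corepressor, was higher (log2 fold change 0.42, adjusted p = 0.00294), with 0.51 in the comparison without dox (adjusted p = 0.158) and 0.29 there without NAA40-KD replicate 4 (adjusted p = 0.0237), and *TBL1XR1*, a cofactor of nuclear receptor corepressors, was lower, at 96.1 ± 5.5 against 196 ± 36 CPM (SD, n = 4, -1.03, adjusted p = 3.88e-06). Without dox *TBL1XR1* gave -0.11 (adjusted p = 0.879), and 0.16 without NAA40-KD replicate 4 (adjusted p = 0.234), the library with the lowest level, 67.3 CPM. Its interaction of line and dox label was -0.92 (adjusted p = 0.129), and -1.20 without that library (adjusted p = 1.31e-05). Between the NAA40-KD groups *TCF7L1*, the more repressive member of the TCF family, was lower with the (+dox) label (-0.62 ± 0.15, SE, adjusted p = 0.0319), opposite to *TCF7*, and *TCF7L2* gave -0.42 ± 0.13 (adjusted p = 0.0782). *TCF7L2* had 275, 280, 265 and 208 CPM with the (-dox) label and 204, 205, 177 and 186 CPM with the (+dox) label. Replicate 4 was the lowest of the (-dox) group for *TCF7L2* and the highest for *TCF7L1*. *TCF7L1* and *TCF7L2* were singled out after their values had been seen.

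Other Wnt targets known from gut epithelium did not share 1 direction. Without dox, 1 of 13 tested passed, *CD44*, the hyaluronan receptor, which was lower at 386 ± 33 against 606 ± 56 CPM (SD, n = 4, log2 fold change -0.64, adjusted p = 0.0218). The call was lost without SCR or NAA40-KD replicate 1, 2 or 3 (adjusted p up to 0.0883) and without the filter on low counts, and without NAA40-KD replicate 4 the value was -0.61 (adjusted p = 0.000187). Its value under dox was 0.11 ± 0.09 (adjusted p = 0.354). *CD44* passed the interaction of line and dox label, at 0.76 on the log2 scale (adjusted p = 0.00401). Of the pathway genes tested 4.82% passed it, beside 9.22% of all genes. Under dox, 2 of 14 rose and 3 fell, where 24.5% of all genes passed, and 6.42% without dox. *CCND1*, cyclin D1, stood at 548, 516, 447 and 519 CPM in SCR and at 778, 773, 843 and 866 CPM in the libraries labelled NAA40-KD (0.68 ± 0.09, adjusted p = 2.28e-05), and *SOX9*, a crypt transcription factor, rose by 0.59 (adjusted p = 0.000805). Without dox, *CCND1* gave 0.43 (adjusted p = 0.0656) and *SOX9* 0.45 (adjusted p = 0.0845), and both passed without NAA40-KD replicate 4, at 0.38 (adjusted p = 0.00214) and 0.40 (adjusted p = 0.0029). *ID2*, an inhibitor of helix-loop-helix factors, was lower at 78.5 ± 6.0 against 143 ± 31 CPM (-0.87, adjusted p = 5.12e-05), and the other genes that fell were *L1CAM* and *MMP7*. Without dox *ID2* gave 0.06 (adjusted p = 0.871). It passed the interaction of line and dox label, at -0.92 (adjusted p = 0.0131). *MYC* gave -0.25 ± 0.20 without dox (adjusted p = 0.487) and 0.14 ± 0.09 under dox (adjusted p = 0.286), and was looked up after the lists had been counted. Without dox, *MYC* had 317, 344, 291 and 297 CPM in SCR and 217, 212, 238 and 372 CPM in the libraries labelled NAA40-KD. Replicates 1 to 3 of NAA40-KD lay below all SCR libraries and replicate 4 above them.

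Of the 4 intestinal differentiation genes that could be tested, *KRT20*, the keratin of differentiated colonocytes, alone passed, and did so in both comparisons. It was 5.96, 5.79, 5.51 and 7.0 CPM in SCR (-dox) and 2.24, 1.52, 1.75 and 2.06 CPM in NAA40-KD (-dox), or -1.67 ± 0.20 on the log2 scale (SE, adjusted p = 0.00342), and -1.72 without replicate 4. Under dox it was 7.40, 6.16, 6.90 and 5.96 CPM in SCR and 1.09, 2.07, 2.14 and 2.13 CPM in the libraries labelled NAA40-KD (-1.80 ± 0.20, adjusted p = 4.26e-06). Like *WNT7A* and *AMER1*, *KRT20* separated the lines at both dox labels, in the opposite direction. The list as a whole did not follow *KRT20*. Its median log2 fold change was -0.06 without dox and 0.12 under dox, beside 0.04 and -0.0042 for all genes tested.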

How the data were processed

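Total RNA of 16 HCT116 libraries was sequenced, 4 per group. The labels name a Direct-zol kit and standard Illumina libraries, whereas the methods name RNeasy and a stranded NEBNext kit. The deposited counts are raw reads per gene, which the authors made with STAR and featureCounts, without filter or normalization. The methods name mm10 and the submitters' notes hg38 and GRCm38, but all 33937 identifiers are human Ensembl ones. Whether reads were counted by strand is not given in the sources used here, so counts of overlapping genes are uncertain. Symbols were found for 33590 identifiers, and 33811 were in GENCODE release 29, which gave exon lengths, coordinates and GC content. The number of count columns matched to no sample was 0.

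Genes with CPM above 1 in at least 4 libraries were tested with edgeR 4.0.16 in R 4.3.3 (TMM normalization, robust quasi-likelihood F test, two-sided, Benjamini-Hochberg adjustment over all genes tested). Each comparison of 2 groups was fitted on its 8 libraries, and the interaction on all 16. This replaces the limma test of the methods, since the values are counts, and keeps their limit of CPM above 1, to which the minimum of 4 libraries was added here. A gene passed at an adjusted p under 0.05, and the fold threshold of the methods, an absolute log2 fold change above 1, is named where it was used as well. SE was taken as the log2 fold change over the root of F. Printed levels are TMM-normalized CPM. Samples are independent RNA preparations per the methods, and no source names separate cultures, so p-values measure the spread between these samples. Groups were taken from the labels. Libraries of the same number did not deviate together in every pair (r from -0.416 to 0.237), so numbers were not used as pairs. The 10 members, the 7 pathway lists, the marker lists and the rules were chosen with earlier results of these data known. Named genes are the members, *NAA40*, up to 4 genes of each list with the lowest p among those that passed a comparison of the lines, and the 3 genes with the highest r to a member that passed both thresholds. Alternatives were DESeq2 1.42.0, limma-voom 3.58.1, library-size normalization, other filters and thresholds, a fit of all libraries, a replicate block, leaving out each library, and, chosen after seeing the data, an offset for GC content per library (lowess span 0.3). The script was tested on simulated data.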

Additional observations from a re-analysis of the deposited data

Results flagged for a closer look

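Among the levels of the 6 tested genes, *SP5* and *NAA40*, 32 groups of 4 libraries were examined for a highest or lowest library far from the rest by Dixon's criterion, and 3 were found. Chance alone gives about 1 in 20 groups. *AXIN2* in SCR (+dox) replicate 4 stood at 2.83 CPM against 1.26 to 1.48 CPM in the other 3 libraries. *TCF7* in the same library stood at 26.7 CPM against 22.6 to 23.2 CPM. *WNT7A* in SCR (-dox) replicate 2 stood at 3.65 CPM against 2.28 to 2.47 CPM. The difference between the lines differed between the dox labels for *TCF7*, by 1.20 on the log2 scale (interaction term, edgeR adjusted p = 0.000360), from -0.94 without dox to 0.26 under dox, and for *NAA40*, by 1.46 (adjusted p = 0.000220), from -1.31 to 0.15.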

How the results depend on the processing

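The fold changes of the 6 tested genes kept their sign where they passed, and the counts of passing genes moved as follows. In the SCR comparison of dox, the count was 0 in every alternative run. Without dox, 2 genes passed between the lines, against 0 at an adjusted p under 0.01, 1 with the fold threshold, 5 with the GC offset and between 1 and 4 when 1 library was left out. The count was 4 without NAA40-KD (-dox) replicate 4, and 1 without NAA40-KD (-dox) replicate 2 or 3 or SCR (-dox) replicate 1, 3 or 4. Under dox, 1 gene passed the threshold, *WNT7A*, which was picked out for this difference and is no test result there. With *WNT7A* among them, 2 passed with DESeq2, with library-size normalization and with CPM above 1 in every library, 3 with the GC offset, 4 at an adjusted p under 0.1 and between 1 and 4 when 1 library was left out. The count was 4 without SCR (+dox) replicate 4 and 2 without replicate 3. Between the NAA40-KD groups, 2 genes passed, against 1 without a filter on low counts, 1 at an adjusted p under 0.01, 0 with the fold threshold, 3 in a fit of all 16 libraries (*ZNRF3* too), 4 with the GC offset and between 1 and 4 when 1 library was left out. The count was 4 without NAA40-KD (-dox) replicate 4 and 1 without each of the (+dox) libraries. For the interaction, 1 gene passed, against 2 with the GC offset and between 1 and 2 when 1 library was left out, 2 without SCR (+dox) replicate 3 and 2 without NAA40-KD (-dox) replicate 4. With the replicate block, which joins samples that share only a number, the counts were 0 without dox, 2 under dox and 1 between the NAA40-KD groups, and of the pathway genes named without dox *AMER1*, *CD44* and *KREMEN1* did not pass. The causes of these changes were not tested. Depth limits *LGR5*, *ASCL2* and *LEF1*, at 0 to 2 counts per library, and *SP5*, at 1 to 21, which could not be tested, and also *AXIN2*, at 16 to 46, and *WNT7A*, at 24 to 90.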
